A study of Rattus norvegicus with 192 samples.

Results

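Oltipraz and sulforaphane served here as reference chemicals for NRF2, the transcription factor of the antioxidant response, in primary hepatocytes isolated from male rats and plated on collagen. The members are 2 of the 192 libraries of the series: 1 library of cells given 30 µM oltipraz and 1 of cells given 10 µM sulforaphane, both on plate 2. They were chosen by their chemical labels and compared with the DMSO libraries replicate 2 to 9, and with each other. All cells were exposed for 24 h, and the controls received 0.1% DMSO. Each chemical was given at 1 dose in 1 library, so a difference from DMSO has no replicate on the treated side: the test takes the lone library to vary as the DMSO libraries do, and a difference between the chemicals compares 2 libraries at different doses. Whether the DMSO libraries are independent cultures or rats is not in the labels, and the p-values therefore reflect library-to-library spread, which may be technical. DMSO replicate 1 was left out because its log2 levels correlated with the other DMSO libraries at Pearson's r of 0.733 to 0.844, against 0.914 to 0.987 among replicates 2 to 9.

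NRF2, encoded by Nfe2l2, is held in the cytoplasm by KEAP1, which hands it to a CUL3 ubiquitin ligase for degradation. Electrophiles modify cysteines of KEAP1, NRF2 then escapes degradation, pairs with a small MAF protein and binds antioxidant response elements beside genes for glutathione synthesis, thioredoxin recycling, quinone and carbonyl reduction, NADPH supply and efflux. In the liver this programme is known for detoxifying reactive drug metabolites and aflatoxin. Oltipraz is a dithiolethione and sulforaphane an isothiocyanate from cruciferous vegetables, and both are used as textbook NRF2 inducers. Electrophiles that react with many proteins can also release HSF1, which drives heat shock genes through heat shock elements.

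The levels are TempO-Seq counts, in which pairs of detector oligos are ligated on a target RNA and sequenced, given per 1e+06 counts of the library (CPM). The oltipraz library held 3623861 counts and the DMSO libraries 2876741 to 8513985. The sulforaphane library held 582071, the lowest total of the 192, so 1 count there is worth 1.72 CPM and the limit that 0 counts allow is 5.15 CPM (3 counts, for counting error only). Of the 5470 probes for which at least 10 counts were expected at its depth, 366 were at 0 in the sulforaphane library. That share, 6.69%, was the highest of all 192 libraries, the next being 2.56%, and the DMSO libraries 2 to 9 reached at most 0.24%. Its log2 CPM correlated with those of the DMSO libraries at r = 0.760 to 0.802 across probes, against 0.908 to 0.967 for oltipraz (probes are not independent replicates). The part of this loss of probes in any sulforaphane result below was not tested. The sulforaphane tests take their spread from the DMSO libraries, where the loss was far smaller, so their SE do not cover it. The SE and p-values printed for sulforaphane, alone or against oltipraz, may therefore be too small.

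**Figure D1:**
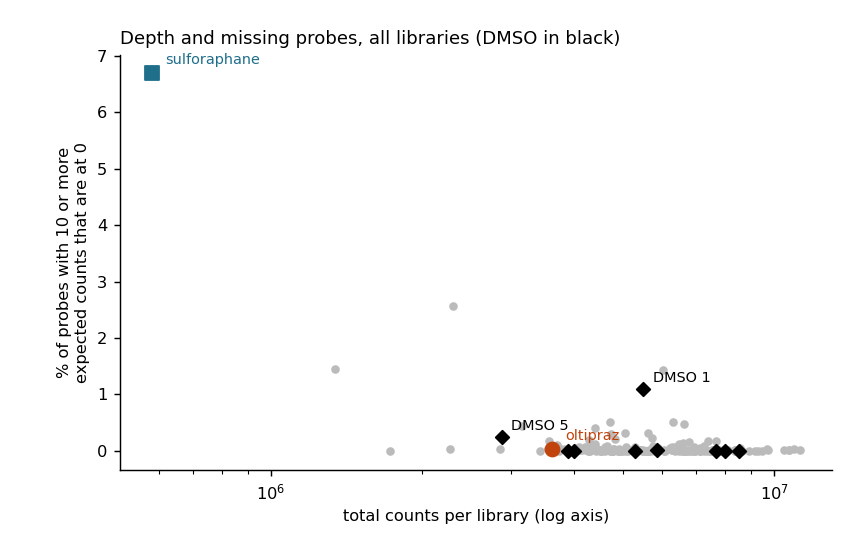
Each point is 1 of the 192 libraries: the x axis gives its total counts (log axis) and the y axis the percentage of probes at 0 among those with 10 or more counts expected from the DMSO mean at that depth. The sulforaphane library stands alone at the upper left, with 582071 counts and 6.69%, while the oltipraz library (0.0329%) lies among the DMSO libraries.

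A composition score placed each library along the difference of DMSO replicate 5 from the mean of replicates 4 and 6, all on plate 2. By that definition replicate 5 scores 1.0, and 4 and 6 score 0.05 and -0.05. The score therefore cannot show that replicate 5 stands apart. DMSO 2, 3, 7, 8 and 9 scored -0.15 to 0.18. Plate was a term of the model, so each fitted change is in effect taken against DMSO 4, 5 and 6 of plate 2, while the spread comes from all 8. The fitted changes use TMM scaling factors (0.753 for sulforaphane, 1.12 for oltipraz, 0.931 to 1.05 in DMSO 2 to 9), and the printed CPM do not. Fitted sulforaphane changes therefore lie above what the CPM alone give, and oltipraz changes below. Hepatocyte markers summed to 47500 to 73700 CPM in the DMSO libraries, against 110 to 151 CPM for macrophage markers and 16.1 to 23.7 CPM for endothelial markers.

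With oltipraz, 47 of 11055 tested probes rose and 92 fell (edgeR's quasi-likelihood test, Benjamini-Hochberg adjusted p under 0.05), 0.425% and 0.832% of the probes, or 1.26% together, and 1561 had an unadjusted p under 0.05. The genes that rose were led by enzymes of glutathione, quinone and aldehyde metabolism and by Cyp1a1. Those that fell included albumin, transferrin and genes of lipid metabolism. With library totals in place of scaling factors the split was 58 higher and 59 lower, and without DMSO replicate 5 it was 116 and 285. By edgeR, 0 probes passed with the 3 DMSO libraries of plate 2 alone (762 at an unadjusted p under 0.05; DESeq2 was run with all 8 only and called 306), and 2 passed when DMSO 1 was added. The oltipraz level lay above all 8 DMSO libraries for 28.2% of all probes and below all 8 for 13.5%, so a lack of overlap is read against those shares. Leaving out DMSO 2, 3, 4, 8 or 9 also cut the calls by more than 1.5 times, to 86, 86, 69, 72 and 92.

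Nqo1, which reduces quinones by a 2-electron step and is the classic NRF2 target, was at 56.4 CPM in the lowest, 65.1 in the median and 69.9 in the highest DMSO library and at 451 CPM with oltipraz. This was the highest Nqo1 level of all 192 libraries and 6.92 times the DMSO median, and the groups did not overlap. The fitted log2 change was 2.56 ± 0.17 (SE; adjusted p = 0.000172). Among the 13 tested genes for reduction and conjugation of quinones, carbonyls and epoxides, 6 rose and 1 fell with oltipraz, with a median log2 change of 1.74 against -0.02 for all probes. Leaving out single DMSO libraries gave 6 to 8 higher.

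Akr7a3, an aflatoxin aldehyde reductase, was at 61.1, 85.9 and 111 CPM in the lowest, median and highest DMSO library and at 732 CPM with oltipraz. The aldose reductase relative Akr1b10 went from 39.9, 54.3 and 64.1 CPM to 447 CPM. Both levels were the highest of the 192 libraries, with log2 changes of 2.88 ± 0.23 and 2.88 ± 0.24 (adjusted p = 0.000388 and 0.00048). Akr1b8, a close relative of Akr1b10, stood at 137 CPM against 8.13 to 23.4 in DMSO (log2 change 3.21 ± 0.47, adjusted p = 0.0105), and because the family members are similar in sequence their probes may share reads. Ptgr1, which reduces reactive alkenals, rose from a DMSO range of 148 to 223 CPM to 827 CPM (2.29 ± 0.17, adjusted p = 0.00026). Ephx1, the microsomal epoxide hydrolase, rose from 791 to 1060 CPM to 3330 CPM (1.74 ± 0.16, adjusted p = 0.000785). Ugdh, which makes UDP-glucuronic acid, had its highest level of the series with oltipraz, 386 CPM, but did not pass (1.98 ± 0.59, adjusted p = 0.168). Its DMSO libraries ran from 105 to 142 CPM apart from replicate 5 at 21.2, and without that library Ugdh passed (1.53, adjusted p = 0.000987). The sulfotransferase Sult1a1 was the member that fell, from 460 to 809 CPM to 211 CPM (-1.74 ± 0.23, adjusted p = 0.00737).

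In glutathione synthesis, Gclc, the catalytic subunit of glutamate-cysteine ligase, was at 114, 154 and 187 CPM in the lowest, median and highest DMSO library and at 697 CPM with oltipraz. Its regulatory subunit Gclm was at 55.0, 75.7 and 105 CPM and reached 303 CPM. Both oltipraz levels were the highest of the series, and the fitted changes were 2.16 ± 0.19 (adjusted p = 0.000527) and 1.92 ± 0.26 (adjusted p = 0.00856). Gpx2, a glutathione peroxidase, rose from 22.6 to 43.7 CPM to 167 CPM (2.04 ± 0.28, adjusted p = 0.00894), again the highest of the 192. These were the 3 of 9 tested genes of glutathione supply that rose, and none fell. Slc7a11, the cystine carrier, was at 1.50 to 3.48 CPM in DMSO and 8.28 CPM with oltipraz, which did not pass (adjusted p = 0.229).

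Of 16 glutathione transferases, 2 rose with oltipraz, and the list median was 0.02. Gsta2 was at 207 CPM in the lowest, 237 in the median and 280 in the highest DMSO library and at 1880 CPM with oltipraz, 7.96 times the DMSO median (2.76 ± 0.16, adjusted p = 0.000158). Gsta4, which conjugates hydroxynonenal, rose from 30.9 to 51.1 CPM to 142 CPM (1.61 ± 0.22, adjusted p = 0.0086). A second alpha-class probe, named Gsta50.81 in the count table, rose by 2.93 ± 0.20 (adjusted p = 0.000172), and alpha-class genes are near copies whose counts can mix. Gstp1, 6.85 times the DMSO median, did not pass (2.07, adjusted p = 0.0748) but did without DMSO 5 (2.58, adjusted p = 0.000779) and with library totals (adjusted p = 0.0437). Without DMSO 5, 3 of the 16 rose.

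In the thioredoxin system 2 of 13 genes rose with oltipraz and none fell. Txnrd1, the cytosolic thioredoxin reductase, was at 85.2, 107 and 131 CPM in the lowest, median and highest DMSO library and at 491 CPM with oltipraz, its highest level of the series (2.15 ± 0.17, adjusted p = 0.000388). Srxn1, sulfiredoxin, which repairs overoxidised peroxiredoxins, was at 70.9, 78.9 and 91.1 CPM and reached 482 CPM (2.52 ± 0.19, adjusted p = 0.000254). Neither gene's groups overlapped. The peroxiredoxins Prdx1 (1660 CPM against a DMSO median of 896) and Prdx6 (2900 against 1620) had log2 changes of 1.0 and 0.82 and did not pass (adjusted p = 0.188 and 0.0598). Without DMSO 5, Prdx6 passed (0.72, adjusted p = 0.0092) and Prdx1 did not (adjusted p = 0.0767).

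Of the genes that rose with oltipraz in these lists, 12 have promoter windows in RefSeq (build GRCr8), from 250 bases before to 50 after each start, and 5 of them hold the core of an antioxidant response element, TGACNNNGC, on either strand: Ephx1, Gclm, Gpx2, Gsta2 and Txnrd1. Across all 33469 windows the motif occurs in 12.1%. A match is a description of letters, not of binding. The 4 matches that lie wholly before the start are shown because they belong to 4 of the genes above; they are written 5′ to 3′ on the gene's strand with the motif in capitals, which here lies on the opposite strand and so reads as its reverse complement.
Gclm (chr2:213031943-213031991, plus strand): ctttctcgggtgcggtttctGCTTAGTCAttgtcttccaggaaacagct
Txnrd1 (chr7:22755954-22756002, minus strand): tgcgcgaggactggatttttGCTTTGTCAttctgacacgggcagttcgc
Ephx1 (chr13:95263146-95263194, minus strand): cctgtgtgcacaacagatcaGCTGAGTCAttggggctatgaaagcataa
Gpx2 (chr6:101230034-101230066, minus strand): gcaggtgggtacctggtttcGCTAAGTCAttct
The matches begin 172, 78, 57 and 13 bases before the start. Txnrd1 and Ephx1 have 2 listed starts each, and the match is at 1 of them. No match lies in the windows of Nqo1, Gclc, Srxn1, Akr7a3, Akr1b8, Akr1b10 or Gsta4.

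In NADPH supply 1 of 6 genes rose with oltipraz and none fell, and in efflux 1 of 5 rose and none fell (median log2 change 0.54 in both lists). Of 9 haem and iron genes edgeR called 0 (3 at an unadjusted p under 0.05, and 0 by DESeq2). Hmox1, the inducible haem oxygenase, stood at 241, 310 and 595 CPM in the lowest, median and highest DMSO library and at 520 CPM with oltipraz, within the DMSO range (0.71 ± 0.24, adjusted p = 0.218). The efflux pump Abcc3 rose from 7.65 to 19.6 CPM to 54.6 CPM, its highest level of the series (1.92 ± 0.38, adjusted p = 0.0436). Its call was lost without DMSO 4, 7, 8 or 9 (adjusted p = 0.132, 0.0806, 0.105 and 0.0927).

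Of the 9 genes for NRF2 and its partners, edgeR called 0 with oltipraz (2 at an unadjusted p under 0.05, and 2 higher by DESeq2). Nfe2l2 itself was at 313, 394 and 411 CPM in the lowest, median and highest DMSO library and at 459 CPM with oltipraz (0.23 ± 0.17, adjusted p = 0.562). Keap1 was at 25.1 CPM, inside its DMSO range of 12.3 to 26.4 CPM. Maff, a small MAF partner, and Bach1, a repressor at the same elements, had log2 changes of 2.06 and 1.11 (adjusted p = 0.103 and 0.0904). Both passed without DMSO 5, at 1.71 and 0.90 (adjusted p = 0.0309 and 0.012).

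Cyp1a1, the classic target of the aryl hydrocarbon receptor (AhR), was at 0, 1.15 and 3.40 CPM in the lowest, median and highest DMSO library and at 39.7 CPM with oltipraz, the third highest of the series (5.95 ± 0.62, adjusted p = 0.00217). Of the 4 tested AhR genes, Cyp1a1 and Nqo1, which answers to both factors, passed, while Cyp1a2 (0.85, adjusted p = 0.351) and Tiparp (0.14, adjusted p = 0.848) did not. Among 16 targets of the xenobiotic receptors CAR and PXR, 5 rose and none fell. Ephx1 and Abcc3, already counted in the lists above, are among the 5. Without DMSO 4 or 8 the count was 2, without DMSO 6 or 7 it was 3, and without DMSO 5 it was 6. Cyp2b2, the classic CAR target, was at 0.695, 1.64 and 3.26 CPM in the lowest, median and highest DMSO library and at 19.3 CPM with oltipraz (3.45 ± 0.62, adjusted p = 0.0298), the 28th highest level of the series. Its call was lost without DMSO 4, 6 or 8 (adjusted p = 0.104, 0.066 and 0.0591). Ugt2b1, a glucuronosyltransferase, rose from 42.1 to 83.7 CPM to 246 CPM (2.01 ± 0.20, adjusted p = 0.00152). The Cyp2b and Ugt2b families hold near-identical genes, so these 2 probes may count relatives.

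**Figure D2:**
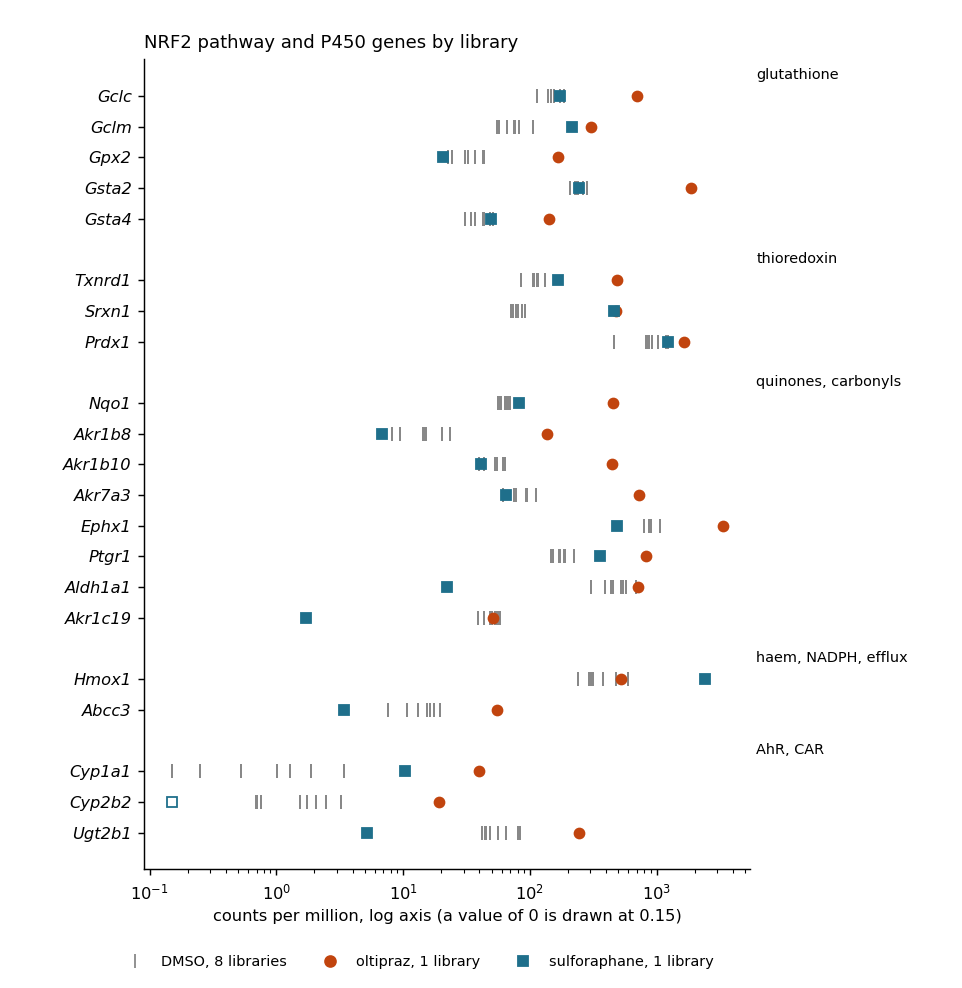
CPM (log axis) of NRF2 pathway and P450 genes: grey ticks are the 8 DMSO libraries, circles the oltipraz library and squares the sulforaphane library. The oltipraz circles lie to the right of every DMSO tick for the glutathione and thioredoxin genes and for Nqo1, Akr1b8, Akr1b10, Akr7a3, Ephx1 and Ptgr1; the sulforaphane square is far right for Hmox1 and Srxn1.

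Outside these lists, Fosl1, a partner of JUN in AP-1, rose with oltipraz from a DMSO range of 28.2 to 53.1 CPM to 299 CPM (2.87 ± 0.20, adjusted p = 0.000172). LOC680910, at 0.25 to 2.0 CPM in DMSO, was at 11.6 CPM (5.10 ± 0.72, adjusted p = 0.00927). Of 18 heat shock genes edgeR called 0 with oltipraz (2 at an unadjusted p under 0.05, and 1 by DESeq2). Hspa1a, the inducible HSP70, was nearest, at 82.0 CPM against 19.8 to 33.3 CPM (1.31 ± 0.27, adjusted p = 0.0513). Without DMSO 5, 2 of the 18 passed, Hspa1a among them (1.43, adjusted p = 0.00728).

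Genes of hepatocyte function were lower with oltipraz. Of 15 hepatocyte markers 6 fell and none rose, with a median log2 change of -0.94; leaving out single DMSO libraries gave 4 to 10, the 10 without DMSO 5. Summed, the markers reached 25300 CPM, below the lowest DMSO library, and in bulk RNA fewer cells of a type and less RNA per cell cannot be told apart. Alb, serum albumin, was at 4620, 4900 and 5210 CPM in the lowest, median and highest DMSO library and at 2510 CPM with oltipraz, the second lowest of the 192 (-1.11 ± 0.16, adjusted p = 0.0109). Tf, transferrin, was at 1090 CPM against 3140 to 3730 (-1.83 ± 0.20, adjusted p = 0.00271). Cps1, the entry enzyme of the urea cycle, was at 77.3 CPM against 212 to 304 (-1.82 ± 0.23, adjusted p = 0.00692). None of these groups overlapped. Of 10 macrophage, 7 endothelial and 5 stellate markers tested, edgeR called 0 (0, 0 and 1 at an unadjusted p under 0.05; 0, 0 and 1 by DESeq2). The macrophage sum was 157 CPM (DMSO 110 to 151), the endothelial sum 30.9 CPM (16.1 to 23.7) with 2 of 10 at 0, and the stellate sum 107 CPM (149 to 231) with 3 of 9 at 0. In every DMSO library 1 of the 9 stellate markers was at 0. The part of cell makeup in these falls was not tested.

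Among the lowest calls, Fgf21, a fasting hormone, fell from 26.7 to 42.8 CPM to 2.48 CPM (-3.96 ± 0.50, adjusted p = 0.00649), and G0s2, an inhibitor of the lipase ATGL, from 74.7 to 252 CPM to 10.2 CPM (-4.15 ± 0.66, adjusted p = 0.0172). Lpin1, which makes diacylglycerol, stood at 23.5 CPM against 107 to 200 (-2.76 ± 0.29, adjusted p = 0.00237), and Igfbp1 at 120 CPM against 353 to 755 (-2.31 ± 0.36, adjusted p = 0.0145). All 4 lie below every DMSO library. Among 21 PPAR alpha targets 4 fell and none rose, with a median log2 change of -0.77 (2 fell without DMSO 8, 5 without DMSO 5). Of 17 cholesterol genes edgeR called 0 (3 at an unadjusted p under 0.05, and 0 by DESeq2). Of 11 genes of fatty acid synthesis 2 fell (1 without DMSO 2, 3, 4, 8 or 9, and 5 without DMSO 5): Acly (-1.60 ± 0.21, adjusted p = 0.00729) and Acaca (-2.17 ± 0.39, adjusted p = 0.0304), the latter lost without DMSO 2, 3, 4, 8 or 9 (adjusted p = 0.0692, 0.0688, 0.0654, 0.0716 and 0.0534).

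Of 12 genes of endoplasmic reticulum folding 2 fell with oltipraz: Edem1, which sends misfolded glycoproteins to degradation (-1.68 ± 0.20, adjusted p = 0.00552), and Herpud1, of the same degradation path (-2.06 ± 0.33, adjusted p = 0.0172). Cyp27a1, a bile acid enzyme, was at 59.9 CPM against 158 to 262 CPM (-2.03 ± 0.31, adjusted p = 0.0145). Cytl1 and Rem1 had 0 counts with oltipraz, at least 16.3-fold and 8.35-fold lower than the DMSO medians (3 counts as the limit in that library). Cytl1 was present with sulforaphane at 22.3 CPM, and Rem1 was at 0 there too.

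**Figure D3:**
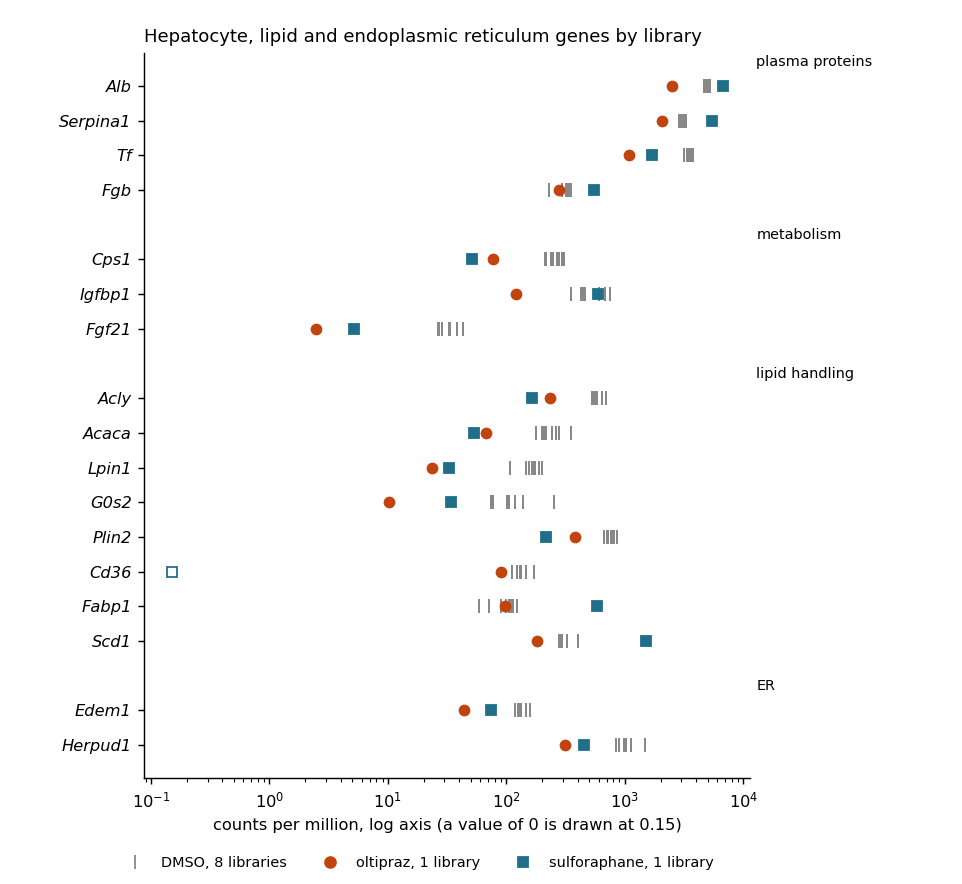
CPM (log axis) of hepatocyte, lipid and endoplasmic reticulum genes: grey ticks are the 8 DMSO libraries, circles the oltipraz library and squares the sulforaphane library. Oltipraz lies left of the DMSO ticks for most genes, while the sulforaphane squares lie right of them for Alb, Serpina1, Fgb, Fabp1 and Scd1 and left of them for Cps1, Acly and Plin2; the open square is Cd36 at 0.

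With sulforaphane, 1095 of the 11055 probes rose and 2049 fell (9.91% and 18.5%, together 28.4%), so a list's count is read against those shares. The spread behind these calls is that of the DMSO libraries and does not cover the loss of probes in this library. The number of calls may therefore be too high. The median log2 change of all probes was -1.07, and 3676 probes were at 0 counts. The median was -0.25 when those with more than 3 counts expected were set at their bound and the rest of them left out. It was -0.36 for the 4723 probes with at least 10 counts expected after TMM scaling. With library totals the split was 671 higher and 3008 lower and the median -1.48. Fewer passed with the 3 DMSO libraries of plate 2 alone (1661) or with DMSO 1 added (1325). The sulforaphane level lay above all 8 DMSO libraries for 15.9% of all probes and below all 8 for 63%. Heat shock and immediate early genes and Hmox1 rose, while Gsta2, Gpx2, Akr7a3, Akr1b10 and Ephx1, all raised by oltipraz, did not pass. For 96 genes with at least 2 probes of enough expected counts, the changes at the first 2 by probe name correlated at r = 0.395 across genes (0.689 with oltipraz). At least 1 probe passed for 65 of these genes, and the signs matched in 59 of them. Both passed for 20, all with matching signs.

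Of 18 heat shock genes 12 rose and none fell, with a median log2 change of 1.56, and 10 passed with library totals. The sulforaphane level was the highest of all 192 libraries for 9 of the 18, against 6.29% of all probes. Hspa1a was at 19.8, 30.4 and 33.3 CPM in the lowest, median and highest DMSO library and at 526 CPM with sulforaphane (4.57 ± 0.26, adjusted p = 1.17e-05). Dnajb1, its J-domain partner, was at 6.95, 17.5 and 20.4 CPM and reached 297 CPM (4.81 ± 0.36, adjusted p = 4.76e-05). The HSP90 activator Ahsa1 rose from 368 to 537 CPM to 1010 CPM (1.72 ± 0.16, adjusted p = 0.000142), and Dnaja1 from 1500 to 1740 CPM to 3490 CPM (1.54 ± 0.15, adjusted p = 0.000184). Hspa2, an HSP70 of the testis that was not in the list, was at 58.4 CPM against at most 1.38 CPM in DMSO (6.52 ± 0.66, adjusted p = 0.000218). None of these groups overlapped.

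The promoters of the 12 heat shock genes that rose are all in the RefSeq windows, and 7 hold the core of a heat shock element, GAANNTTC, which is its own reverse complement and occurs in 8.59% of all windows. The match nearest before the start is shown for 4 of them, with the motif in capitals.
Dnajb1 (chr19:41431142-41431172, minus strand): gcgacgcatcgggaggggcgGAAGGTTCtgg
Dnaja1 (chr5:60638203-60638250, plus strand): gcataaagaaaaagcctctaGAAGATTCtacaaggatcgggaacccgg
Hspa8 (chr8:50080444-50080491, plus strand): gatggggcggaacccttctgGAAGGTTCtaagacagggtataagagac
Bag3 (chr1:192533308-192533355, plus strand): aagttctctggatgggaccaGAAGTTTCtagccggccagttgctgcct
These begin 11, 181, 50 and 132 bases before the start. The windows of Hspa1a, Hspa1l, Hspa4, Hspa4l and Ahsa1 do not hold these letters.

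Immediate early genes, which are switched on within minutes by kinase signalling, gave 8 higher and 1 lower of 15. Fos was at 0.783, 1.04 and 2.47 CPM in the lowest, median and highest DMSO library and at 165 CPM with sulforaphane, its highest level of the series (7.29 ± 0.42, adjusted p = 1.17e-05). Egr1 was at 27.8, 40.2 and 46.1 CPM and reached 708 CPM (4.62 ± 0.24, adjusted p = 7.97e-06). Maff, which is also a partner of NRF2, went from 1.04 to 10.1 CPM to 113 CPM (5.25 ± 0.51, adjusted p = 0.000175), and Atf3 from 16.7 to 31.0 CPM to 141 CPM (3.10 ± 0.31, adjusted p = 0.000206). Dusp1, a phosphatase of the MAP kinases, was the member that fell, from 685 to 817 CPM to 174 CPM (-1.61 ± 0.21, adjusted p = 0.000671).

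In the integrated stress response, which runs through ATF4 when translation initiation is slowed, 6 of 21 genes rose and 6 fell with sulforaphane. Of the 21, 3 were at 0 counts. With plate 2 DMSO alone 5 rose and 1 fell, and with all 9 DMSO libraries 5 rose and 0 fell. Ddit3, the transcription factor CHOP, was at 43.5, 63.2 and 79.4 CPM in the lowest, median and highest DMSO library and at 289 CPM with sulforaphane (2.88 ± 0.20, adjusted p = 3.44e-05). Ppp1r15a, which restarts translation, and the secreted Gdf15 rose by 2.53 ± 0.24 and 2.44 ± 0.28 on the log2 scale (adjusted p = 0.000171 and 0.000399), and Ddit4, an inhibitor of mTORC1, by 2.83 ± 0.49 (adjusted p = 0.00281). Asns, asparagine synthetase, fell from 148 to 200 CPM to 43.0 CPM (-1.63 ± 0.27, adjusted p = 0.00214), a call lost with all 9 DMSO libraries. 

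**Figure D4:**
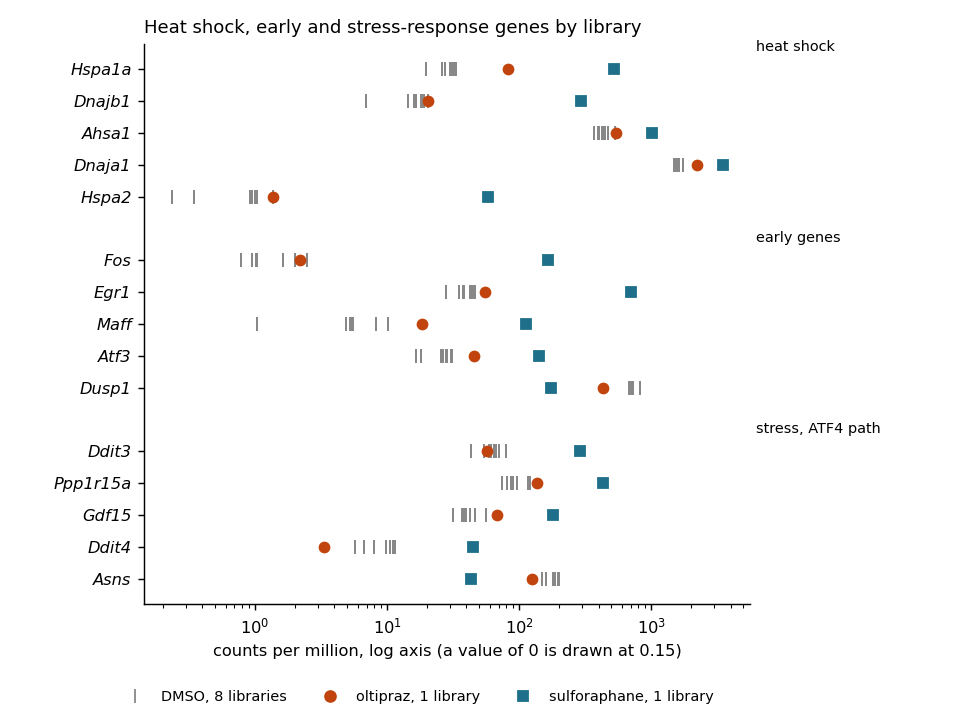
CPM (log axis) of heat shock, early and stress-response genes: grey ticks are the 8 DMSO libraries, circles the oltipraz library and squares the sulforaphane library. The sulforaphane squares lie right of every DMSO tick except for Dusp1 and Asns, where they lie left.

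The NRF2 pathway split with sulforaphane. Hmox1 was at 241 CPM in the lowest, 310 in the median and 595 in the highest DMSO library and at 2430 CPM with sulforaphane, the highest of the 192 and 7.85 times the DMSO median (3.51 ± 0.22, adjusted p = 1.82e-05). Srxn1 rose from 70.9 to 91.1 CPM to 462 CPM (3.04 ± 0.19, adjusted p = 1.82e-05). Gclm rose from 55.0 to 105 CPM to 215 CPM (2.0 ± 0.28, adjusted p = 0.000962), Ptgr1 from 148 to 223 CPM to 361 CPM (1.68 ± 0.19, adjusted p = 0.000311) and Txnrd1 from 85.2 to 131 CPM to 167 CPM (1.17 ± 0.20, adjusted p = 0.00251). The carbonyl reductase Cbr1 (1.42 ± 0.28, adjusted p = 0.00546), Prdx1 (1.15 ± 0.32, adjusted p = 0.0232), the malic enzyme Me1 (1.89 ± 0.47, adjusted p = 0.0144) and the transketolase Tkt (0.64 ± 0.15, adjusted p = 0.011) also rose. With library totals the calls of Prdx1 (0.72, adjusted p = 0.13) and Tkt (0.23, adjusted p = 0.264) were lost, and that of Prdx1 also with no plate term (adjusted p = 0.055). The calls of Prdx1 and Tkt were lost with plate 2 DMSO alone too. With all 9 DMSO libraries the calls of Gclm, Ptgr1, Txnrd1, Cbr1, Prdx1, Me1 and Tkt were lost, while those of Hmox1 and Srxn1 held. In the glutathione list 2 of 9 rose and 1 fell (1 rose without DMSO 8), in the thioredoxin list 3 of 13 rose and 1 fell (7 rose without DMSO 5), and in the NADPH list 2 of 6 rose (1 with library totals). With all 9 DMSO libraries, 0 rose in the glutathione list, 1 in the thioredoxin list and 0 in the NADPH list.

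Nqo1 and Gclc passed only narrowly with sulforaphane. Nqo1 stood at 82.5 CPM (48 counts), above the DMSO range of 56.4 to 69.9 CPM, with a log2 change of 0.69 ± 0.22 (adjusted p = 0.0397). That call was lost without DMSO 2, 3, 4, 6, 8 or 9 (adjusted p up to 0.0779) and with library totals (0.28, adjusted p = 0.337). Gclc, at 174 CPM, lay inside its DMSO range of 114 to 187 CPM; its log2 change of 0.74 ± 0.21 (adjusted p = 0.0288) was lost without DMSO 8 (adjusted p = 0.0507) and with library totals (0.32, adjusted p = 0.301). Gsta2 (0.40, adjusted p = 0.138; 0.00 with library totals), Gpx2 (-0.40, adjusted p = 0.515), Akr7a3 (-0.02, adjusted p = 0.961), Ephx1 (-0.46, adjusted p = 0.0836) and Abcc3 (2 counts, adjusted p = 0.269) did not pass.

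Of the 13 quinone and carbonyl genes, 3 rose and 4 fell with sulforaphane. Aldh1a1, a retinal dehydrogenase, was at 303, 489 and 694 CPM in the lowest, median and highest DMSO library and at 22.3 CPM with sulforaphane (-4.25 ± 0.47, adjusted p = 0.000304). Akr1c19 had 1 count where 21.6 were expected, 0.0332 times the DMSO median (counting interval 0.000841 to 0.185; adjusted p = 0.000719). Akr7a2 (-1.43 ± 0.26, adjusted p = 0.00381) and Sult1a1 (-0.76 ± 0.22, adjusted p = 0.0276) were the others that fell. The Sult1a1 call was lost with no plate term and with plate 2 DMSO alone, and the calls of Sult1a1 and Akr7a2 were lost with all 9 DMSO libraries. Of 16 glutathione transferases 5 rose and 1 fell: the mitochondrial and peroxisomal Gstk1 stood at 850 CPM against 236 to 408 (1.81 ± 0.28, adjusted p = 0.0015), Gsto1 at 615 CPM against 247 to 393 (1.31 ± 0.20, adjusted p = 0.00148), and Gstt2 at 48.1 CPM against 176 to 205 (-1.58 ± 0.23, adjusted p = 0.00123). With library totals 2 transferases rose. With all 9 DMSO libraries 1 rose, and the Gsto1 call was lost.

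In haem and iron handling, 2 of 9 rose and 3 fell with sulforaphane. Beside Hmox1, the transferrin receptor Tfrc was higher (0.80 ± 0.17, adjusted p = 0.00707), a call lost with library totals (0.39, adjusted p = 0.13) and with plate 2 DMSO alone (adjusted p = 0.0801). With library totals 1 of the 9 rose and 4 fell, and with plate 2 DMSO alone 1 rose and 0 fell. Hmox2, the constitutive haem oxygenase (-0.90 ± 0.22, adjusted p = 0.0128), and Alas1, the rate-limiting enzyme of haem synthesis (-1.61 ± 0.42, adjusted p = 0.0176), fell. Both of these calls were lost with plate 2 DMSO alone and with all 9 DMSO libraries. Fech, which inserts iron into haem, was at 51.5 CPM against 105 to 243 (-1.35, adjusted p = 0.0454) and lost its call in 7 of the 8 fits that left out 1 DMSO library (all but DMSO 5; adjusted p up to 0.0812). The glutaredoxin Glrx, with 1 count (0.136 times the DMSO median, counting interval 0.00344 to 0.758; adjusted p = 0.0486), lost it in 6 of 8 (all but DMSO 5 and 6; adjusted p up to 0.0752).

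Of the 9 genes for NRF2 and its partners, 3 rose with sulforaphane: Maff, Bach1 (1.34 ± 0.31, adjusted p = 0.0107) and Cul3, the ligase scaffold, which at 392 CPM against 180 to 233 CPM had its highest level of the series (1.45 ± 0.17, adjusted p = 0.000416). The Bach1 call was lost with library totals (0.92, adjusted p = 0.0668) and with plate 2 DMSO alone (adjusted p = 0.0723), and 2 of the 9 rose in each case. Nfe2l2 was at 285 CPM, below the DMSO range of 313 to 411 CPM, with a fitted change of 0.12 after scaling (adjusted p = 0.605) and -0.29 with library totals. Cyp1a1 passed with 6 counts, or 10.3 CPM against 0 to 3.40 CPM (4.58 ± 1.15, adjusted p = 0.0153). Its call was lost with no plate term and with plate 2 DMSO alone, and its change ran from 3.33 to 6.34 over the alternatives. Ugt2b1 fell to 3 counts where 24.9 were expected, 0.0984 times the DMSO median (counting interval 0.0203 to 0.288; adjusted p = 0.00146).

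Hepatocyte markers went both ways with sulforaphane: 8 of 15 rose and 5 fell, and with library totals 5 rose and 5 fell. With plate 2 DMSO alone, 2 of these markers rose and 1 fell. Their summed level, 50000 CPM, was within the DMSO range. Alb was at 6710 CPM against 4620 to 5210 (0.88 ± 0.15, adjusted p = 0.00215). The antitrypsin Serpina1 was at 5440 CPM against 2880 to 3290 (1.23 ± 0.15, adjusted p = 0.000497) and Fgb, a fibrinogen chain, at 545 CPM against 227 to 349 (1.27 ± 0.20, adjusted p = 0.00181). The 3 secreted proteins lay above every DMSO library. Hnf4a, the master factor of hepatocyte identity, had 7 counts where 34.9 were expected (-2.21 ± 0.54, adjusted p = 0.0137), and Cps1 was lower (-1.82 ± 0.27, adjusted p = 0.0012). The calls of Alb and Hnf4a were lost with plate 2 DMSO alone. With all 9 DMSO libraries those of Alb, Hnf4a, Serpina1 and Fgb were lost. Of 15 other P450 and xenobiotic enzymes 7 rose and 3 fell, Cyp2d1 by 1.64 ± 0.18 (adjusted p = 0.000319) and Cyp27a1 with a change of -1.93 ± 0.36 (adjusted p = 0.004).

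Of 21 PPAR alpha targets 10 fell and 2 rose with sulforaphane. The fatty acid carrier Cd36 had 0 counts where 57.8 were expected, at least 25.5-fold lower than the DMSO median, and the lipid droplet coat Plin2 was at 215 CPM against 663 to 860 (-1.49 ± 0.21, adjusted p = 0.000972). Fabp1, a fatty acid binding protein, rose from 59.1 to 124 CPM to 582 CPM (3.05 ± 0.29, adjusted p = 0.000171). In fatty acid synthesis, 2 of 11 rose and 4 fell: the desaturase Scd1 was at 1520 CPM against 279 to 406 (2.78 ± 0.17, adjusted p = 1.82e-05) and Acly at 165 CPM against 528 to 699 (-1.53 ± 0.22, adjusted p = 0.00105). Among 17 cholesterol genes, 3 rose, among them Cyp51 (1.69 ± 0.22, adjusted p = 0.000682) and the SREBP anchor Insig1 (2.35 ± 0.49, adjusted p = 0.00666), and 4 fell (2 without DMSO 2, 3, 7, 8 or 9, and 6 without DMSO 5).

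Among the largest changes with sulforaphane, Fstl1, a secreted glycoprotein, was at 44.1, 78.8 and 119 CPM in the lowest, median and highest DMSO library and at 3540 CPM (5.89 ± 0.48, adjusted p = 8.18e-05). The lipase relative Pnpla5 was at 94.5 CPM against at most 3.40 CPM (5.96 ± 0.57, adjusted p = 0.000167) and Tpm2, a muscle tropomyosin, at 48.1 CPM against at most 1.03 CPM (6.59 ± 0.70, adjusted p = 0.000262). Dhdds, Enc1, Lrwd1 and Dmap1, each at 72.8 CPM or more in every DMSO library, had 0 counts, at least 20.1-fold, 20.8-fold, 16.5-fold and 15.6-fold lower than their DMSO medians. Picked after their values were seen, the metallothioneins Mt1a (874 CPM against 56.6 to 167, 3.34 ± 0.44, adjusted p = 0.000711) and Mt2A (871 CPM against 81.2 to 251, 3.44 ± 0.33, adjusted p = 0.000171) were higher. Cytb, the symbol of mitochondrial cytochrome b, was at 2760 CPM against 68.0 to 124 CPM (5.35 ± 0.27, adjusted p = 7.97e-06), its highest level of the series.

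Markers of other liver cells were at few counts with sulforaphane, where 0 counts allow up to 5.15 CPM. Of 11 macrophage markers 7 were at 0 and the sum was 94.5 CPM (DMSO 110 to 151), among them Marco and C1qc, at least 2.87-fold and 3.12-fold lower than the DMSO medians. Of the 10 tested, 1 rose and 3 fell. The one that rose was Cd68, a lysosomal protein of macrophages, at 39.5 CPM against 5.21 to 20.2 CPM (2.27 ± 0.69, adjusted p = 0.0337), a call lost without DMSO 4 (adjusted p = 0.061) and with library totals (adjusted p = 0.0634). Of 10 endothelial markers 7 were at 0 and the sum was 29.2 CPM (16.1 to 23.7), with Clec4g at 18.9 CPM against at most 1.50 CPM (4.25 ± 0.73, adjusted p = 0.00269). Of the 7 endothelial markers tested, 2 rose, Clec4g among them, and 1 fell. Of 9 stellate markers 4 were at 0 and the sum was 84.2 CPM (149 to 231), with Col3a1 at 37.8 CPM against at most 4.50 CPM (3.85 ± 0.55, adjusted p = 0.00111) and Vim, vimentin, at 32.6 CPM against 119 to 188 CPM (-1.65 ± 0.33, adjusted p = 0.00523). Col3a1 was the only 1 of 5 tested to rise and Vim the only 1 to fall, and 1 of the 9 was at 0 in every DMSO library. Of 7 bile duct markers 5 were at 0 and the sum was 127 CPM (16.0 to 29.2), nearly all of it Epcam at 119 CPM (2.94 ± 0.33, adjusted p = 0.00036). With oltipraz 5 of these bile duct markers were also at 0, and 3 were at 0 in every DMSO library. Their part in the results above was not tested.

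**Figure D5:**
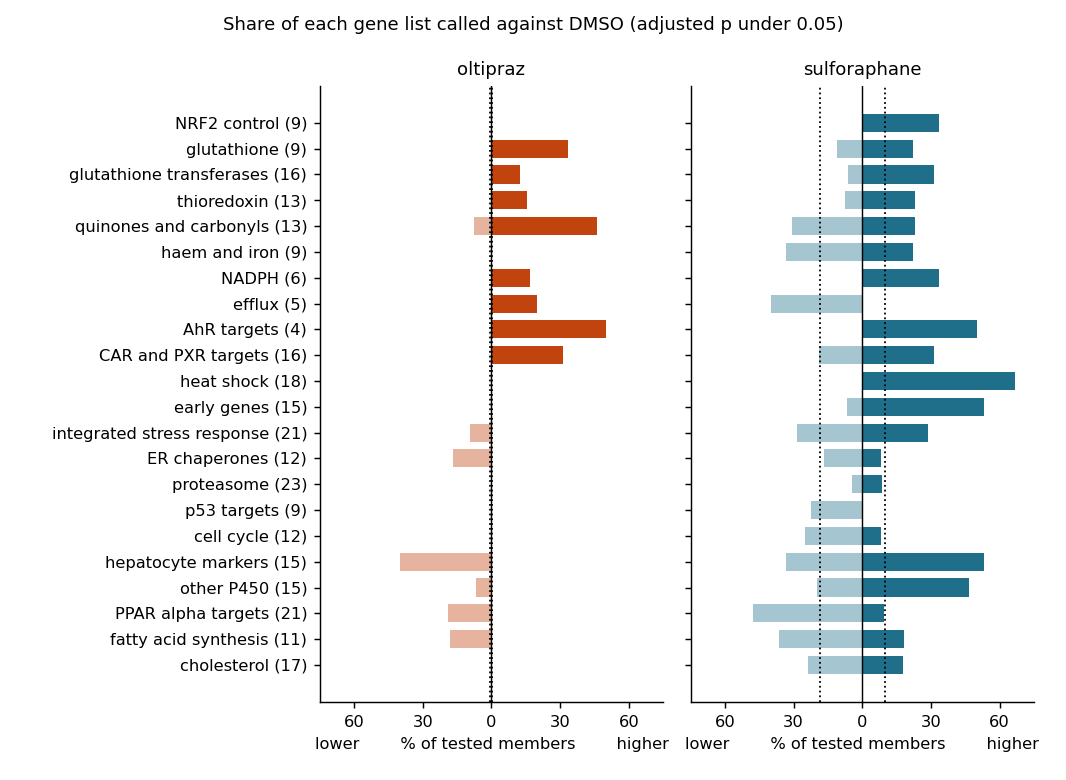
Bars give the percentage of each gene list's tested members (number in brackets) that passed an adjusted p of 0.05 against DMSO, to the right for higher and to the left, paler, for lower; dotted lines mark the shares over all 11055 probes (0.425% and 0.832% with oltipraz, 9.91% and 18.5% with sulforaphane). With oltipraz 6 of 13 quinone and carbonyl genes are higher and 6 of 15 hepatocyte markers lower, and with sulforaphane 12 of 18 heat shock genes are higher.

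Set against each other, 1700 of 11055 probes were higher in the oltipraz library and 861 in the sulforaphane library (15.4% and 7.79%, together 23.2%); with library totals the split was 2959 and 424. With the 3 DMSO libraries of plate 2 alone 747 passed, and with DMSO 1 added 688. Of the 13 quinone and carbonyl genes 8 were higher with oltipraz and 1 with sulforaphane. Nqo1 differed by a log2 of 1.87 ± 0.26 (451 against 82.5 CPM, adjusted p = 0.00152), Akr7a3 by 2.91 ± 0.37 (732 against 65.3 CPM, adjusted p = 0.00119), Akr1b10 by 2.86 ± 0.39 (447 against 41.2 CPM, adjusted p = 0.00157) and Ephx1 by 2.20 ± 0.22 (3330 against 484 CPM, adjusted p = 0.000528). Aldh1a1 differed by 4.43 ± 0.50 (719 against 22.3 CPM, adjusted p = 0.000729) and Ugt2b1 by 4.99 ± 0.44 (246 against 5.15 CPM, adjusted p = 0.000452). All 6 passed with DESeq2 size factors. Library totals moved the median difference of all probes from 0.98 to 1.55, toward oltipraz, so that setting works in favour of these 6 calls. With all 9 DMSO libraries Nqo1, Aldh1a1 and Ugt2b1 still passed, while Akr7a3, Akr1b10 and Ephx1 did not.

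Of 9 glutathione genes 2 were higher with oltipraz and none with sulforaphane, and of 16 glutathione transferases 2 were higher with oltipraz and 5 with sulforaphane. The median difference over all probes was 0.98, the same as that of Txnrd1 below. It was 0.29 for the 4723 probes with at least 10 counts expected with sulforaphane after TMM scaling. Gsta2 (1880 against 246 CPM; 2.36 ± 0.24, adjusted p = 0.000528), Gclc (697 against 174 CPM; 1.43 ± 0.26, adjusted p = 0.00528) and Gpx2 (167 against 20.6 CPM; 2.44 ± 0.49, adjusted p = 0.00728) were higher with oltipraz, as was Txnrd1 (0.98 ± 0.25, adjusted p = 0.0191). Gstk1 (213 against 850 CPM; -2.58 ± 0.38, adjusted p = 0.0021) and the mu-class Gstm2 (122 against 239 CPM; -1.55 ± 0.29, adjusted p = 0.00537) were higher with sulforaphane. Over the alternatives the Gstm2 difference ran from -1.73 to -0.97. The calls of Gclc, Gpx2, Txnrd1 and Gstm2 were lost with plate 2 DMSO alone. With all 9 DMSO libraries they were lost too, as were those of Gsta2 and Gstk1. For Gclm the difference was -0.08 with a 95% interval of -0.87 to 0.70 (adjusted p = 0.869; 0.49 with library totals). For Srxn1 it was -0.52, with an interval of -1.08 to 0.04 (adjusted p = 0.166; 0.06 with library totals). Prdx1 (-0.15, interval -1.06 to 0.77; 0.43 with library totals), Tkt (-0.12, interval -0.54 to 0.29; 0.45 with library totals), Ptgr1 (0.62, interval 0.09 to 1.15 before adjustment, adjusted p = 0.0889) and Cyp1a1 (1.37, interval -0.50 to 3.23) did not pass either. The doses were not matched.

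Higher with sulforaphane were Hmox1 (2430 against 520 CPM; -2.81 ± 0.32, adjusted p = 0.000808), Fos (165 against 2.21 CPM; -6.79 ± 0.61, adjusted p = 0.000452), Egr1 (708 against 55.5 CPM; -4.25 ± 0.35, adjusted p = 0.000374) and Hspa1a (526 against 82.0 CPM; -3.26 ± 0.36, adjusted p = 0.000729). Of the 18 heat shock genes 8 were higher with sulforaphane and none with oltipraz. Ddit3 differed by -2.91 ± 0.28 (adjusted p = 0.000521) and Scd1 by -3.64 ± 0.26 (adjusted p = 0.000221). Of 15 hepatocyte markers 10 were higher with sulforaphane and 2 with oltipraz: Alb stood at 6710 against 2510 CPM (-2.0 ± 0.19, adjusted p = 0.000521), Serpina1 at 5440 against 2060 CPM (-1.98 ± 0.20, adjusted p = 0.000528) and the fetuin Ahsg at 7610 against 3030 CPM (-1.91 ± 0.22, adjusted p = 0.000821). With all 9 DMSO libraries the calls of Hmox1, Ddit3, Serpina1 and Ahsg were lost. Dmap1 and Cd36, at 105 and 90.2 CPM with oltipraz, had 0 counts with sulforaphane, and Cytl1 had 0 counts with oltipraz.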

How the data were processed

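TempO-Seq libraries were made from total RNA, and the authors deposited a table of raw counts per probe for 192 libraries; the submitters' processing notes name Bowtie, and versions, build and counting rules are not given in the sources used here. Ligated oligos carry no molecular identifiers, so intervals on counts cover counting error only. Probes reaching 10 counts at the median depth of 5745085 (1.741 CPM) in at least 6 libraries were tested (11055 of 22253). The 8 DMSO and 2 treated libraries were fitted in edgeR 4.0.16 (R 4.3.3; quasi-likelihood F-test, TMM scaling, plate as a term, 5 residual degrees of freedom; SE from the F statistic), with Benjamini-Hochberg adjustment over all probes at 0.05. The code was tested on simulated data. No 2 of the 10 libraries agreed within sampling noise (chi-square over degrees of freedom of 2.65 or more). The chemicals, gene lists and tests were chosen with earlier results of these data known. Genes were named by rule: up to 12 highest and 12 lowest called probes per comparison with at least 10 counts seen or expected, up to 4 members per list by adjusted p, members called against their list's median, and members of the NRF2, AhR, haem, NADPH, thioredoxin, glutathione and quinone lists. Alternatives changed scaling, test (DESeq2 1.42.0), filter, plate term (also with the library composition score as a covariate) and DMSO set. Some genes that the rule selects are not reported here.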

Additional observations from a re-analysis of the deposited data

Results flagged for a closer look

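Among the 105 genes whose values were followed in the report, 17 had 1 of the 8 DMSO libraries far from the other 7 on the log2 scale (Dixon's test), a share of 16.2%, where chance flags about 5% of groups. DMSO replicate 5 was the library in 12 of the 17, and it lies on plate 2, against which both chemicals are compared. It was low for the NRF2-linked Ugdh (21.2 CPM, others 105 to 142), Prdx1 (463, others 820 to 1220), Prdx6 (1150, others 1570 to 1760), Cbr1 (146, others 263 to 406), Gsto1 (247, others 351 to 393), Maff (1.04, others 4.88 to 10.1) and Bach1 (32.3, others 55.3 to 80.3). It was also low for Cyp1a2 (29.5 CPM, others 54.1 to 87.2), Dnajb1 (6.95, others 14.5 to 20.4), Fech (105, others 166 to 243), Fgb (227, others 293 to 349) and Insig1 (196, others 442 to 847). Without this library, Bach1, Maff, Prdx6 and Ugdh passed with oltipraz, as the report gives beside each. In other libraries, Ephx1 (1060 CPM, others 791 to 904) and Scd1 (406, others 279 to 325) were high in replicate 2, Dusp1 (817, others 685 to 733) in replicate 9 and Marco (20.5, others 14 to 16.5) in replicate 6, while Hspa1a (19.8, others 26.2 to 33.3) was low in replicate 3.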

How the results depend on the processing

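The 139 oltipraz calls became 306 with DESeq2, 272 with no filter, 212 with no plate term and 933 with the library score as a covariate. They became 0 with the DMSO libraries of plate 2 alone and 2 with all 9 DMSO libraries, and leaving out 1 DMSO library gave 69 to 401. The score is defined by the departure of DMSO replicate 5, so as a covariate it takes that departure out of the spread by construction. The 3144 sulforaphane calls became 1661 with plate 2 alone and 1325 with all 9 DMSO libraries, and the 2561 differences 747 and 688; their other alternatives stayed within 1.5 times. Signs turned, for genes that had not passed, as follows. With oltipraz, Tiparp (0.14) was -0.09 with no plate term and -0.01 with the score, and Keap1 (0.06) ran from -0.08 to 0.29 over the left-out libraries. With sulforaphane, Akr7a3 (-0.02) was 0.05 with DESeq2 size factors, with DESeq2 and with no plate term, 0.03 with a filter on expected counts, 0.02 with the score, and -0.18 to 0.14 over the left-out libraries. With library totals, sulforaphane values of Gsta2 and Nfe2l2 were 0 and -0.29, and the differences between libraries were 0.49 for Gclm, 0.43 for Prdx1, 0.06 for Srxn1 and 0.45 for Tkt. The cause was not tested. Of the named called genes, 32 of 35 with oltipraz, 68 of 73 with sulforaphane and 24 of 24 between them passed whichever DMSO library was left out. Many were named for large changes or small p in these data, and leaving out DMSO libraries cannot test the lone treated libraries. The difference between the chemicals takes its size almost wholly from the 2 treated libraries. With all 9 DMSO libraries 33, 28 and 13 of these calls were lost. No paired analysis was possible because the treated libraries carry no replicate number. With 582071 counts, a fall with sulforaphane of a gene under 5.15 CPM in DMSO was not detectable, and each chemical rests on 1 library.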
